A study of Mus musculus with 6 samples.

Results

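The hedgehog signalling group described here holds 9 of the 26586 genes of the count table, chosen by name: the ligand gene Ihh, the receptor genes Ptch1, Hhip and Smo, the transcription factor genes Gli1, Gli2 and Gli3, and the stromal regulators Nr2f2 and Hand2. All 9 had enough reads to be tested. They were measured by RNA sequencing in cells sorted from isolates of mouse uterine epithelium, as 3 Axin2+ labelled libraries (the GFP-positive fraction) and 3 labelled Axin2- (the GFP-negative fraction), with 1 library of each fraction per mouse number. All 3 mice had the genotype Axin2rtTA; tetOH2BJGFP, in which the Axin2 promoter, through a doxycycline-dependent activator, switches on a GFP-tagged histone. All had their ovaries removed at 4 weeks of age and, after 2 weeks of rest, received doxycycline and had their uteri taken 4 days later, with a labelled age of 6 weeks. Low ovarian hormone levels and doxycycline are shared by both fractions. The labels give each library a mouse number and also mention pooling of cells. If cells were pooled across mice, the spread behind the p-values may be technical.

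Hedgehog ligands are secreted proteins that bind the receptor Ptch1 and so release Smo, a membrane protein that turns the Gli transcription factors on. Ptch1, Gli1 and Hhip are themselves classical transcriptional targets of the pathway, and Ptch1 and Hhip limit it by capturing ligand. In the mouse uterus the epithelium makes Ihh under progesterone, the stroma responds to it, and Nr2f2 and Hand2 act in the stroma, Hand2 by restraining fibroblast growth factor signals to the epithelium.

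Library totals lay between 49714402 and 59597315 counts. The transcript of Axin2, whose promoter drives the reporter, stood at 164.5, 243.5 and 299 CPM in the Axin2+ labelled libraries of mice 1, 2 and 3, against 369, 357.5 and 356 CPM in the Axin2- labelled ones. It was lower in 3 of 3 mice without passing the test (log2 fold change -0.61 ± 0.21 SE, edgeR adjusted p = 0.0710). Every direction below is that of the libraries as labelled. The labels call both fractions epithelial. The summed level of 12 general epithelial genes was 2418 to 3563 CPM in the Axin2+ labelled libraries and 197 to 307 CPM in the Axin2- labelled ones. The summed level of 12 stromal fibroblast genes was 2903 to 4395 CPM in the Axin2+ labelled libraries and 10750 to 22880 CPM in the Axin2- labelled ones. The summed level of 12 smooth muscle and pericyte genes was 275 to 540 CPM in the Axin2+ labelled libraries and 2664 to 6637 CPM in the Axin2- labelled ones. None of these genes was at 0 in a whole fraction, and all 12 epithelial genes rose, all 12 stromal genes fell and 11 of the 12 muscle and pericyte genes fell. The markers therefore do not bear out a purely epithelial label for either fraction. Among the Axin2+ labelled libraries the stromal sum was 3297, 2903 and 4395 CPM in mice 1, 2 and 3, beside epithelial sums of 3563, 2920 and 2418 CPM. In such bulk libraries fewer cells of a type and less RNA per cell cannot be told apart. The summed level of 8 macrophage genes was 670 to 3886 CPM in the Axin2+ labelled libraries and 47.3 to 307 CPM in the Axin2- labelled ones. Of other types, 8 of 8 macrophage genes, 5 of 8 endothelial genes and 3 of 6 mesothelial genes rose, and 1 mesothelial gene, Wt1, fell. With the mouse as a block 4 macrophage and 3 endothelial genes rose. Macrophage genes that rose numbered 5 without the Axin2+ labelled library of mouse 1, 3 without that of mouse 2, and 0, 5 and 3 without the Axin2- labelled libraries of mice 1, 2 and 3. Endothelial genes that rose numbered 2 without the Axin2+ labelled library of mouse 2 and 3 without the Axin2- labelled library of mouse 3. When each library was left out in turn, 8 to 12 stromal genes and 10 to 11 muscle and pericyte genes fell. All 12 epithelial genes rose each time.

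Of the 9 hedgehog genes, Ihh rose in the Axin2+ labelled libraries, and Ptch1, Gli1, Gli2, Gli3 and Nr2f2 fell. Hhip, Smo and Hand2 did not pass the test. The same test called 14.5% of all 16896 genes higher and 12.8% lower, or 27.3% in either direction (2447 higher and 2171 lower, and 3255 higher and 1573 lower when scaled by library size alone), against 1 and 5 of 9 here. The genes were chosen for their known roles with earlier results of these data in view. The CPM ranges of the fractions did not overlap for 7 of the 9 genes, which held for 47.2% of all genes tested. A gene counts as passed when its p-value from edgeR, adjusted over all genes tested, was under 0.05, and CPM is the count scaled to library depth and composition.

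**Figure D1:**
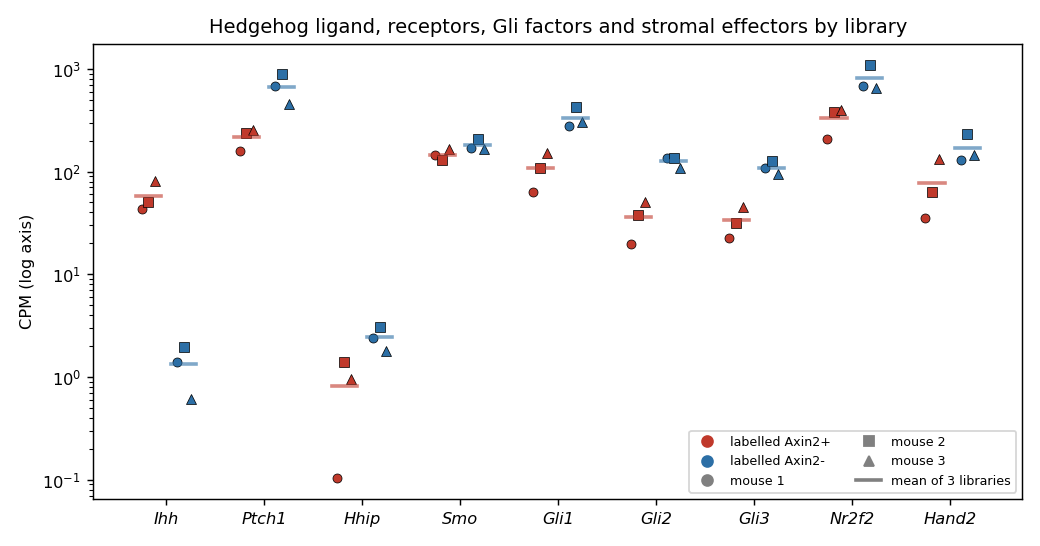
Level of each hedgehog gene in each library (CPM, log axis), with the Axin2+ labelled libraries in red left of the Axin2- labelled ones in blue, symbols for the mouse and bars for the mean of 3 libraries. Ihh lies at 43.3 to 80.6 CPM in the Axin2+ labelled libraries and at 0.618 to 1.96 CPM in the Axin2- labelled ones, whereas the red points of Ptch1, Gli1, Gli2, Gli3 and Nr2f2 all lie below the blue ones.

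The promoters of the ligand gene that rose and of 3 genes of the receiving side that fell, the receptor gene Ptch1 and the transducing factors Gli2 and Gli3, are shown to compare them for the letters that Gli factors are known to bind. Each run covers 250 bases before and 50 after the gene's start in RefSeq (build GRCm38.p6), on the gene's strand, and capitals mark the core CCACCC or its reverse complement GGGTGG. The windows are chr1:74951623-74951922 (minus strand) for Ihh, chr13:63565686-63565985 (minus strand) for Ptch1, chr1:119053570-119053869 (minus strand) for Gli2 and chr13:15463473-15463772 (plus strand) for Gli3. The RefSeq start of Ptch1 used here lies 7863 bases inside the gene as GENCODE M21 annotates it, and that of Gli3 lies 488 bases inside.
Ihh: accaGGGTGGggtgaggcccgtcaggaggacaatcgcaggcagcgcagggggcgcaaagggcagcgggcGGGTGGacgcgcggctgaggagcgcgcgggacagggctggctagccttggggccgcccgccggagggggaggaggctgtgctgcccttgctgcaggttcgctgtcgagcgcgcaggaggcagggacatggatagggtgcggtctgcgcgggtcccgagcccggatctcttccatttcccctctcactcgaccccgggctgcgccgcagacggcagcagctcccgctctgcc
Ptch1: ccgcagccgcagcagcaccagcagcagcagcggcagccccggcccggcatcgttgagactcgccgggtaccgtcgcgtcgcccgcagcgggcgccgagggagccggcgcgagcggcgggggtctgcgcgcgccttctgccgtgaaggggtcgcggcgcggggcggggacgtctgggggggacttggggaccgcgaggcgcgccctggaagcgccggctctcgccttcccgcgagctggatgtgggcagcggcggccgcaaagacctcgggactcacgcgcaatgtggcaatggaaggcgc
Gli2: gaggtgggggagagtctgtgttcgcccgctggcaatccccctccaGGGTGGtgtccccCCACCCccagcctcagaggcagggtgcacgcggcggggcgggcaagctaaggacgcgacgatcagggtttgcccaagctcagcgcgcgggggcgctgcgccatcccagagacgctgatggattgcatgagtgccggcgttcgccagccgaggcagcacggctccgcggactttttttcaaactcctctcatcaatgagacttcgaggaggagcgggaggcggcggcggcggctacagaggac
Gli3: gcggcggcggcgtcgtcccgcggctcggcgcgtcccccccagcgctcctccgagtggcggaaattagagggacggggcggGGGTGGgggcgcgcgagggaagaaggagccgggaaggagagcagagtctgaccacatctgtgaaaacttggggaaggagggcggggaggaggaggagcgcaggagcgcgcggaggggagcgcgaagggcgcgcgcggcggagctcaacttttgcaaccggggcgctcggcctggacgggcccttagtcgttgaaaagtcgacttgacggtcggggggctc

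The full Gli consensus GACCACCCA, searched on both strands, was in none of the promoters of 8 of the 9 genes (Gli1 had no entry) and in 0.253% of all 32851 promoters of that length. The core CCACCC, which the consensus contains, was in 5 of the 8, Ihh, Smo, Gli2, Gli3 and Hhip, and in 31.5% of all promoters. It began 246 and 181 bases upstream of the Ihh start and 205 and 192 bases upstream of the Gli2 start, and 170 bases upstream of the Gli3 start. The Ptch1 window held none. These are matches of letters in short windows, not binding sites. G and C made up 67.3 (Gli2) to 73.7 (Hhip) percent of the 5 windows with the core. They made up 76.3 percent for Ptch1, 49.7 percent for Nr2f2 and 50.3 percent for Hand2, which lack it. The share over all promoters was not matched for base composition.

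Ihh, the epithelial ligand (ENSMUSG00000006538, chromosome 1, 74945315 to 74951672, minus strand, mm10), stood at 43.3, 50.9 and 80.6 CPM in the Axin2+ labelled libraries of mice 1, 2 and 3, and at 1.40, 1.96 and 0.618 CPM in the Axin2- labelled ones. Every Axin2+ labelled library lay far above every one labelled Axin2-, and the Axin2+ labelled library of mouse 3 was the highest while the Axin2- labelled one of the same mouse was the lowest. The read counts behind these values were 2510, 2698 and 4329 in the Axin2+ labelled libraries, and 72, 112 and 30 in the Axin2- labelled ones. The means were 58.3 ± 19.7 CPM in the Axin2+ labelled libraries and 1.325 ± 0.673 CPM in the Axin2- labelled ones (SD, n = 3 each), with a log2 fold change of 5.45 ± 0.48 (SE) and an edgeR adjusted p of 0.000546. Ihh passed in all 16 other settings tried, with log2 fold changes between 5.13 and 5.85.

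Ihh rose together with the epithelial markers, and its difference was larger than that of their sum in each mouse. On the log2 scale the ratio of Ihh to the summed level of the 12 epithelial genes within a library was -6.36, -5.84 and -4.91 in the Axin2+ labelled libraries of mice 1, 2 and 3, and -7.13, -7.29 and -8.88 in the Axin2- labelled ones. The fractions did not overlap, with a difference of 2.07 on the log2 scale and the higher ratio in the Axin2+ labelled library in 3 of 3 mice. By exact two-sided permutation p was 0.1, which is as low as 3 libraries against 3 can reach, and this ratio was chosen after the values were seen. Its size depends on the genes summed, led by Krt8 and Krt18 with log2 fold changes of 3.32 and 3.25. The log2 fold changes of the 12 epithelial genes ran from 2.78 (Krt7) to 4.19 (Epcam). For this ratio no library was left out and no other summary of the epithelial genes was tried. Of the other hedgehog ligand genes, Shh had no read in any library, and Dhh had 9, 26 and 15 reads in the Axin2+ labelled libraries and 88, 17 and 44 in the Axin2- labelled ones and did not pass.

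Ptch1, the ligand receptor (ENSMUSG00000021466, chromosome 13, 63508328 to 63573598, minus strand), stood at 157.5, 238 and 256 CPM in the Axin2+ labelled libraries of mice 1, 2 and 3, and at 674, 882 and 455 CPM in the Axin2- labelled ones. All 3 Axin2+ labelled libraries lay below all 3 labelled Axin2-. The log2 fold change was -1.62 ± 0.29 (SE, n = 3 each), with an edgeR adjusted p of 0.00706. Within the mice the log2 differences were -2.10, -1.89 and -0.83, the smallest of them in mouse 3. Hence Ihh and Ptch1 stood in opposite order: the log2 ratio of Ihh to Ptch1 reads within a library was -1.86, -2.23 and -1.67 in the Axin2+ labelled libraries and -8.91, -8.82 and -9.52 in the Axin2- labelled ones. These ratios differed by 7.16 on the log2 scale without overlap (exact two-sided permutation p = 0.1, the smallest possible; over 7 such gene pairs, adjusted p = 0.35). Because each gene alone already separated the fractions, in opposite directions, their ratio had to separate too and adds no support. The other pairs were chosen after the values were seen.

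Smo, the signal transducer that Ptch1 holds in check (ENSMUSG00000001761, chromosome 6, 29735503 to 29761365, plus strand), had the smallest log2 fold change of the 9 genes. It stood at 144, 129 and 166 CPM in the Axin2+ labelled libraries and at 170.5, 206 and 164 CPM in the Axin2- labelled ones. The fractions overlapped, and in mouse 3 the libraries stood at nearly the same level. The log2 fold change of -0.30 ± 0.15 (SE, n = 3 each) did not pass (edgeR adjusted p = 0.171), nor did it in any of 16 other settings. The ratio of Ptch1 to Smo reads was lower in the Axin2+ labelled library in 3 of 3 mice, with log2 ratios of 0.13, 0.89 and 0.62 in the Axin2+ labelled libraries and 1.98, 2.10 and 1.47 in the Axin2- labelled ones (exact two-sided permutation p = 0.1, adjusted p = 0.35).

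Hhip, a membrane-bound decoy that captures hedgehog ligands (ENSMUSG00000064325, chromosome 8, 79965851 to 80058006, minus strand), was near the lower end of detection. It had 6, 74 and 51 reads in the Axin2+ labelled libraries and 123, 176 and 88 in the Axin2- labelled ones, or 0.103, 1.40 and 0.949 CPM in the Axin2+ labelled libraries and 2.39, 3.08 and 1.81 CPM in the Axin2- labelled ones. The fractions did not overlap, but the Axin2+ labelled libraries spread widely because of the low value in mouse 1. The log2 fold change of -1.57 ± 0.81 (SE, n = 3 each) did not pass (edgeR adjusted p = 0.192). It was -1.05 without the Axin2+ labelled library of mouse 1 and -2.20 without that of mouse 2, and passed in neither case.

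The 3 Gli genes encode zinc finger factors, of which Gli2 is the main activator, Gli3 is mostly processed to a repressor, and Gli1 is an activator and a readout of pathway activity. Gli1 (ENSMUSG00000025407, chromosome 10, 127329882 to 127341974, minus strand) stood at 62.8, 108 and 153 CPM in the Axin2+ labelled libraries and at 279, 423 and 303 CPM in the Axin2- labelled ones. Gli2 (ENSMUSG00000048402, chromosome 1, 118834132 to 119053619, minus strand) stood at 19.8, 37.9 and 50.5 CPM in the Axin2+ labelled libraries and at 136, 136 and 108 CPM in the Axin2- labelled ones. Gli3 (ENSMUSG00000021318, chromosome 13, 15463235 to 15730026, plus strand) stood at 22.8, 31.9 and 45.6 CPM in the Axin2+ labelled libraries and at 107.5, 126 and 95.0 CPM in the Axin2- labelled ones. For each of the 3 genes the fractions did not overlap, and among the Axin2+ labelled libraries mouse 1 was lowest and mouse 3 highest. All 3 fell, with log2 fold changes of -1.64 ± 0.33 for Gli1, -1.81 ± 0.32 for Gli2 and -1.71 ± 0.26 for Gli3 (SE, n = 3 each; edgeR adjusted p = 0.0116, 0.00740 and 0.00370), and they passed in all 16 other settings.

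The shares of the 3 Gli genes in their summed level overlapped between the fractions. Per kilobase of merged exon, Gli1 made up 71.0 ± 0.58 percent of the summed Gli level in the Axin2+ labelled libraries and 68.9 ± 4.04 percent in the Axin2- labelled ones (SD, n = 3 each). Gli2 made up 17.2 ± 0.97 percent in the Axin2+ labelled libraries and 19.3 ± 3.12 percent in the Axin2- labelled ones, and Gli3 made up 11.8 ± 1.33 percent in the Axin2+ labelled libraries and 11.8 ± 0.92 percent in the Axin2- labelled ones. The log2 ratio of Gli1 to Gli2 reads differed by 0.20 and that of Gli1 to Gli3 by 0.05 between the fractions, with exact two-sided permutation p-values of 0.4 and 0.6 (n = 3 each; adjusted p = 0.84 for both). With 3 libraries against 3 that test cannot go below 0.1, so it does not show that the proportions were the same.

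Nr2f2, which encodes the orphan nuclear receptor COUP-TFII (ENSMUSG00000030551, chromosome 7, 70351944 to 70366735, minus strand), stood at 207, 384 and 399.5 CPM in the Axin2+ labelled libraries and at 674.5, 1098 and 652 CPM in the Axin2- labelled ones. The fractions did not overlap. Its log2 fold change was -1.29 ± 0.32 (SE, n = 3 each), with an edgeR adjusted p of 0.0229. The call was lost when mouse 2 lacked its Axin2+ labelled library (-1.41, adjusted p = 0.0564) or its Axin2- labelled library (-1.01, adjusted p = 0.0534).

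Hand2, a helix-loop-helix factor of the stroma (ENSMUSG00000038193, chromosome 8, 57320983 to 57324633, plus strand), stood at 35.7, 62.8 and 131.5 CPM in the Axin2+ labelled libraries and at 130.1, 234 and 143 CPM in the Axin2- labelled ones. The fractions overlapped, because the Axin2+ labelled library of mouse 3 stood just above the Axin2- labelled one of mouse 1. The log2 fold change of -1.14 ± 0.47 (SE, n = 3 each) did not pass (edgeR adjusted p = 0.112). Without the Axin2+ labelled library of mouse 3 it passed, with a log2 fold change of -1.78 and an adjusted p of 0.0157. It also passed with DESeq2 (log2 fold change -1.15, adjusted p = 0.0299). Within mice 1, 2 and 3 the log2 differences were -1.87, -1.90 and -0.13. The exons of Hand2 overlap those of the antisense gene Hand2os1 over 19.6 percent of their length, and reads of such partners cannot be told apart where the strand setting is not given. Smaller overlaps, of 1.93 to 7.46 percent, with opposite-strand genes touch Gli1, Gli3, Hhip and Nr2f2. Genes of the lists have such overlaps too, among them Ccnd1 (23.4 percent), Kif7 (20.3), Gas1 (19.9), Sox17 (16.8) and the muscle marker Tagln (67.9).

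**Figure D2:**
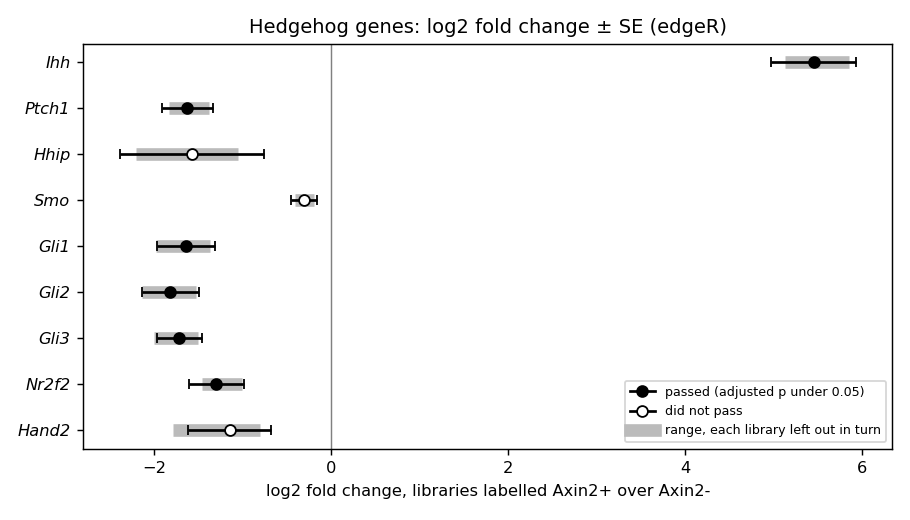
Log2 fold change of each hedgehog gene, Axin2+ labelled libraries over the Axin2- labelled ones, with its SE as a bar, filled where the edgeR test passed, and in grey the range when each of the 6 libraries is left out in turn. Ihh lies at 5.45, the 3 Gli genes and Ptch1 lie between -1.81 and -1.62, and Smo lies at -0.30.

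Compared per kilobase of merged exon, the order of the 9 genes differed between the fractions mainly in the places of Ihh and Smo. In the Axin2+ labelled libraries the order of mean CPM per kilobase was Nr2f2 (38.3 ± 12.4), Hand2 (32.6 ± 21.0), Smo (26.0 ± 3.37), Gli1 (21.6 ± 8.996), Ihh (19.1 ± 6.46), Ptch1 (15.3 ± 3.71), Gli2 (5.25 ± 2.25), Gli3 (3.49 ± 1.20) and Hhip (0.0900 ± 0.0724; SD, n = 3). Neighbours overlapped within 1 SD down to Ptch1, and Gli2 overlapped with Gli3. In the Axin2- labelled libraries the order was Nr2f2 (93.7 ± 29.1), Hand2 (72.0 ± 24.1), Gli1 (67.1 ± 15.4), Ptch1 (47.2 ± 15.1), Smo (32.1 ± 4.07), Gli2 (18.5 ± 2.40), Gli3 (11.4 ± 1.61), Ihh (0.435 ± 0.221) and Hhip (0.267 ± 0.0697; SD, n = 3). There, neighbours overlapped within 1 SD down to Smo, and Ihh overlapped with Hhip.

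The 8 genes other than Ihh shared much of their order among the libraries of a fraction. The share of all genes with that order was not computed, so it is not known to be particular to these 8. In the fraction labelled Axin2- all 8 were highest in mouse 2, and 6 of them were lowest in mouse 3. In the fraction labelled Axin2+ 7 of 8 were highest in mouse 3 and 7 of 8 were lowest in mouse 1. In the fraction labelled Axin2+ the summed levels in mice 1, 2 and 3 were 275, 413 and 540 CPM for the smooth muscle and pericyte genes. That sum had the same order as most of the 8 hedgehog genes. Of the genes summed, only Des, Synpo2, Pdgfrb, Cspg4 and Acta2 shared its order. Myh11 had the reverse order (38.45, 35.1 and 31.56 CPM), and the rest had neither. The summed levels were 3297, 2903 and 4395 CPM for the stromal genes, also highest in mouse 3. Those of the macrophage genes were 3886, 2057 and 670 CPM, in the reverse order. In the fraction labelled Axin2- the stromal sum was 22880, 10750 and 19390 CPM and the smooth muscle and pericyte sum 6637, 2664 and 5483 CPM. Both sums were lowest in mouse 2, where the 8 hedgehog genes were highest. The stromal list was not uniform: its collagen genes were all lowest in mouse 2 (Col1a1 4612, 761 and 4712 CPM). Dcn, Lum and Dpt were instead highest in mouse 2 (Dcn 2559, 4045 and 1860 CPM), and mouse 2 lay between the others for Pdgfra, Fbln1 and Thy1. The macrophage sum in the fraction labelled Axin2- was 224, 47.3 and 307 CPM, also lowest in mouse 2. The part of these marker levels in the variation was not tested.

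The stromal sum was itself lower in every Axin2+ labelled library than in any labelled Axin2-, so a gene of unchanged CPM, as Smo nearly was, gains a higher ratio to it. The share of all genes that overlap in this ratio was not computed. Set against the stromal markers within each library, 7 of these 8 genes overlapped between the fractions. For 6 of the 7 the overlap rested on the Axin2- labelled library of mouse 2, where the stromal marker sum and its collagen genes were lowest. The log2 ratio of Ptch1 to the summed level of the 12 stromal fibroblast genes was -4.39, -3.61 and -4.10 in the Axin2+ labelled libraries and -5.09, -3.61 and -5.41 in the Axin2- labelled ones. The mean difference was 0.67 on the log2 scale, and the ratio overlapped between the fractions (exact two-sided permutation p = 0.3, n = 3 each). The same held for Gli1, Gli2, Gli3, Nr2f2, Hand2 and Hhip, with differences of 0.57, 0.37, 0.52, 0.96, 0.98 and 0.07 and exact permutation p-values of 0.3 to 1.0 (adjusted p = 0.533 to 1.0). The size and sign of these differences depend on the genes summed. The log2 fold changes of the 12 stromal genes ran from -3.02 (Col1a1) to -1.33 (Thy1), with Dcn at -1.57 and Pdgfra at -1.79. Without the Axin2- labelled library of mouse 2 the ratios of Ptch1, Gli1, Gli2, Gli3, Nr2f2 and Hand2 were higher in every Axin2+ labelled library than in both remaining Axin2- labelled ones, with differences of 1.22, 1.07, 0.75, 0.94, 1.53 and 1.56. Leaving out any 1 of the other 5 libraries kept the overlap for these 6 genes, with differences of 0.15 (Gli2) to 1.39 (Hand2). The difference of Hhip had no stable sign, at 1.20 without the Axin2+ labelled library of mouse 1 and -0.78 without that of mouse 2, and it overlapped in every case. Smo was the exception: its log2 ratio was -4.52, -4.50 and -4.72 in the Axin2+ labelled libraries and -7.07, -5.70 and -6.88 in the Axin2- labelled ones, a difference of 1.97 without overlap (exact permutation p = 0.1, the smallest possible; adjusted p = 0.533 over the 8 genes). Against the summed smooth muscle and pericyte genes, 7 of the 8 genes had higher ratios in all Axin2+ labelled libraries than in any labelled Axin2-, with differences of 1.64 to 3.24, and Hhip overlapped (exact permutation p = 0.1 for each of the 7, adjusted p = 0.114). That sum was 275 to 540 CPM in the Axin2+ labelled libraries and 2664 to 6637 CPM in the Axin2- labelled ones. Genes that fall less than it gain higher ratios, so the separation says little about these 7 genes. The share of all genes that separate in this ratio was not computed.

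**Figure D3:**
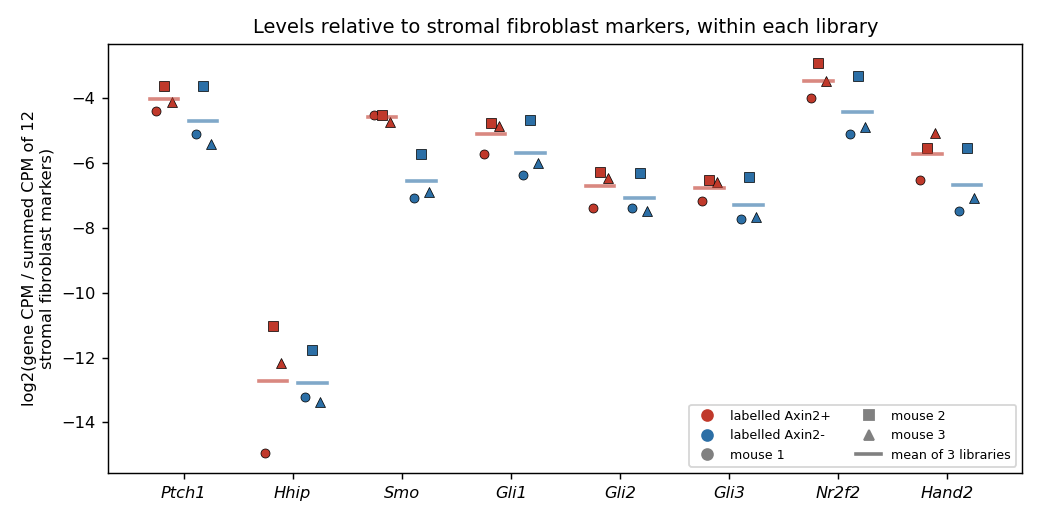
Level of each hedgehog gene other than Ihh relative to the summed level of 12 stromal fibroblast markers (log2 of the ratio of CPM, within each library), with the Axin2+ labelled libraries in red left of the Axin2- labelled ones in blue and bars for the mean of 3 libraries. Red and blue points overlap for every gene but Smo, whose red points lie at -4.72 to -4.50 and blue ones at -7.07 to -5.70.

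The wider hedgehog pathway was described by 4 lists, beside a median log2 fold change of -0.01 over all genes tested. Of the ligand and release genes 1 of 8 tested rose (Ihh), 3 fell and 4 did not pass, with a median of -1.06. Scube1 and Scube2, secreted proteins that help release hedgehog ligands, fell to 89.7 ± 35.0 and 1.28 ± 0.74 CPM in the Axin2+ labelled libraries, against 319 ± 64.3 and 11.2 ± 6.56 CPM in the Axin2- labelled ones (SD, n = 3 each; edgeR adjusted p = 0.00492 and 0.0179). Hhat, the enzyme that attaches palmitate to the ligands, fell by 1.11 ± 0.28 (SE) on the log2 scale (edgeR adjusted p = 0.0244), but this call was lost when the mouse entered the fit as a block (adjusted p = 0.0593) and when any of 5 of the 6 libraries was left out. Scube2 did not pass without the Axin2+ labelled library of mouse 2 (adjusted p = 0.0621), or without the Axin2- labelled libraries of mouse 1 (0.0547) or mouse 3 (0.0610). Leaving out any of these 3 libraries left 1 gene of the list lower.

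Of the reception genes 1 of 8 rose, 3 fell and 4 did not pass, with a median log2 fold change of -0.82. Without Ptch1, Smo and Hhip, 1 of 5 rose and 2 fell. Besides Ptch1, the co-receptor Boc fell by 0.71 ± 0.16 (SE) on the log2 scale (edgeR adjusted p = 0.0179). Gas1, another co-receptor, fell to 120.0 ± 49.7 CPM in the Axin2+ labelled libraries, against 267 ± 96.6 CPM in the Axin2- labelled ones (SD, n = 3 each; edgeR adjusted p = 0.0493), a call lost in 8 of 16 other settings, 5 of which each left out a library. The gene that rose was Lrp2, the endocytic receptor megalin, with 371 ± 230.5 CPM in the Axin2+ labelled libraries and 54.5 ± 27.4 CPM in the Axin2- labelled ones (edgeR adjusted p = 0.00989). Boc did not pass with library size scaling (adjusted p = 0.0533), without the Axin2+ labelled library of mouse 2 (0.0649), or without the Axin2- labelled ones of mouse 1 (0.0707) or mouse 3 (0.0571), and each of these 4 settings left 1 gene of the list lower.

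Of the intracellular genes 10 of 19 fell, none rose and 9 did not pass, with a median log2 fold change of -0.49. Without the Gli genes, 7 of 16 fell. Besides the Gli genes, Kif7, a kinesin of the ciliary tip that regulates Gli proteins, fell to 14.9 ± 3.90 CPM in the Axin2+ labelled libraries, against 42.1 ± 6.48 CPM in the Axin2- labelled ones (edgeR adjusted p = 0.00381). Evc, a ciliary partner of Smo, fell to 43.5 ± 11.9 CPM in the Axin2+ labelled libraries, against 98.3 ± 12.4 CPM in the Axin2- labelled ones (SD, n = 3 each; edgeR adjusted p = 0.00747). Without the Axin2+ labelled library of mouse 2 only 6 of the list fell. Under library size scaling 1 gene of this list was called higher, and that scaling moved the median of all genes to 0.16.

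Of the known hedgehog targets 3 of 10 tested rose, 4 fell and 3 did not pass, with a median log2 fold change of -1.24. Without Ptch1, Gli1 and Hhip, 3 of 7 rose and 2 fell. Ptch1, Gli1, Bcl2 and Bmp4 fell, whereas Ccnd1, Ccnd2 and Mycn, which drive the cell cycle in many cell types, rose. Ccnd1 and Ccnd2, which encode D-type cyclins, stood at 162 ± 16.8 and 278 ± 19.8 CPM in the Axin2+ labelled libraries and at 14.8 ± 2.72 and 88.4 ± 27.5 CPM in the Axin2- labelled ones (SD, n = 3 each; edgeR adjusted p = 0.000192 and 0.00276). Bcl2, an inhibitor of apoptosis, stood at 40.1 ± 12.4 CPM in the Axin2+ labelled libraries and 124.5 ± 29.1 CPM in the Axin2- labelled ones (edgeR adjusted p = 0.00589). Mycn had a log2 fold change of 1.81 ± 0.40 and Bmp4 of -0.92 ± 0.25 (SE, n = 3 each; edgeR adjusted p = 0.0169 and 0.0323), and both were named after their values were seen. Mycn did not pass without the Axin2+ labelled library of mouse 2 (adjusted p = 0.0561) or that labelled Axin2- of mouse 3 (0.0542), nor Bmp4 in 6 of 16 other settings. Foxf2 and Foxl1 had too few reads to be tested.

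**Figure D4:**
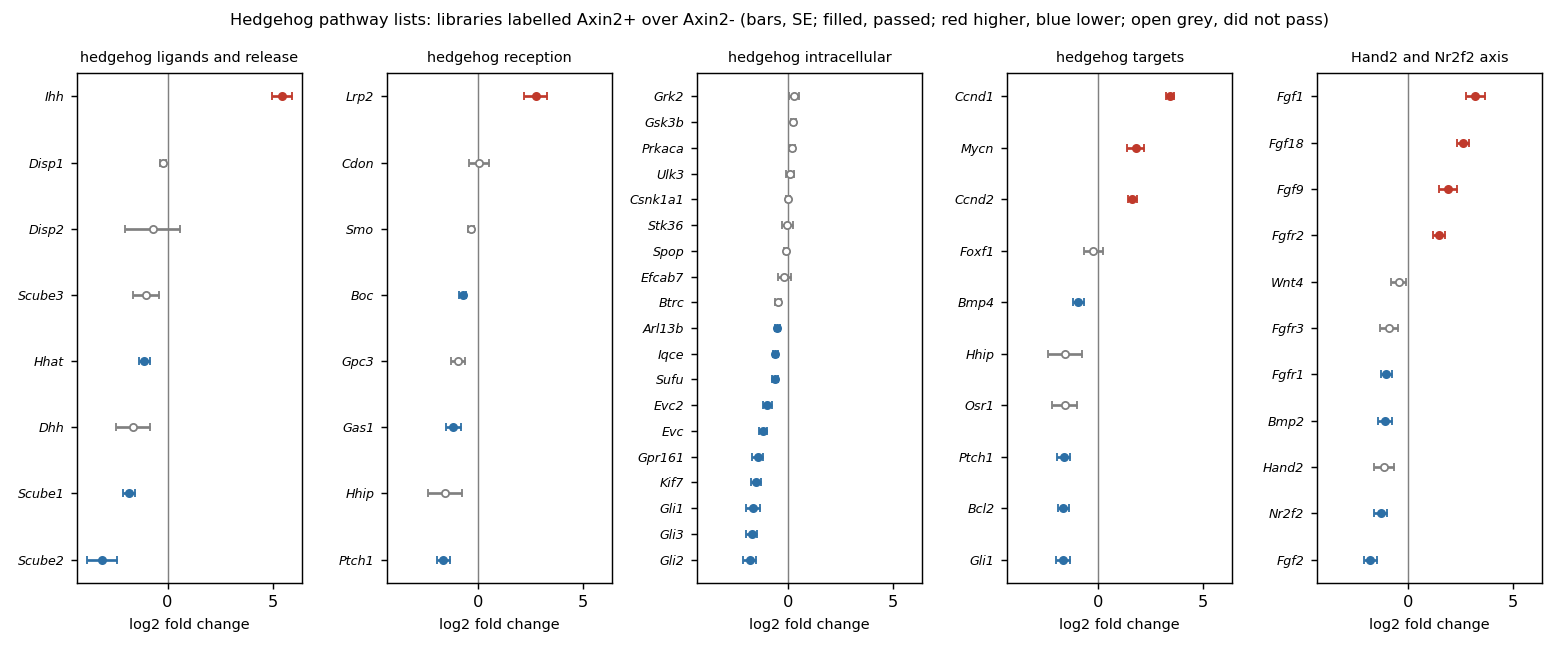
Log2 fold changes, Axin2+ labelled libraries over the Axin2- labelled ones, of the tested genes of 4 hedgehog lists and of the list around Hand2 and Nr2f2, with SE bars, red for genes that rose, blue for genes that fell and open grey for genes that did not pass. Ihh at 5.45 and Lrp2 at 2.77 stand apart from the other ligand, release and reception genes, and none of the 19 intracellular genes rose.

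Among genes known to act upstream of Ihh in the uterus, 2 of 6 rose and 4 did not pass, with a median log2 fold change of 0.38. Sox17, a transcription factor of the uterine epithelium, stood at 249 ± 62.8 CPM in the Axin2+ labelled libraries and 14.97 ± 6.89 CPM in the Axin2- labelled ones (SD, n = 3 each; edgeR adjusted p = 0.00103). Gata2, a partner of the progesterone receptor, rose by a log2 fold change of 0.74 ± 0.20 (SE; edgeR adjusted p = 0.0329), which did not pass without the Axin2+ labelled libraries of mouse 2 (adjusted p = 0.0839) or mouse 3 (0.0802), or without the Axin2- labelled ones of mouse 1 (0.0899) or mouse 2 (0.0776).

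In the list around Hand2 and Nr2f2, 4 of 11 genes rose, 4 fell and 3 did not pass, with a median log2 fold change of -0.88. Without Hand2 and Nr2f2 themselves, 4 of 9 rose and 3 fell. Of the fibroblast growth factor genes that Hand2 is known to restrain, Fgf1 rose to 118 ± 65.2 CPM and Fgf18 to 14.4 ± 2.505 CPM in the Axin2+ labelled libraries, against 12.8 ± 2.09 and 2.325 ± 0.550 CPM in the Axin2- labelled ones (SD, n = 3 each; edgeR adjusted p = 0.00304 and 0.000897). Fgf9 of this list, named after its values were seen, also rose, with a log2 fold change of 1.93 ± 0.43 (SE; edgeR adjusted p = 0.0170). It passed in 14 of 16 other settings. Fgf2 moved the other way, with 2.32 ± 0.78 CPM in the Axin2+ labelled libraries and 8.02 ± 0.21 CPM in the Axin2- labelled ones (edgeR adjusted p = 0.00682). Of this list 1 gene fell without the Axin2+ labelled library of mouse 2, and 2 fell without any 1 of the Axin2- labelled libraries. The receptor Fgfr2 stood at 263 ± 60.9 CPM in the Axin2+ labelled libraries and 92.5 ± 30.5 CPM in the Axin2- labelled ones (edgeR adjusted p = 0.00970). The part that the epithelial, stromal and muscle marker levels given above have in the changes of these pathway genes was not tested.

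The genes whose levels over the 6 libraries were most like that of Ihh were Adipor2, Aldoc, Ugp2, Myrip and Nrg4, with Pearson r of 0.997 to 0.9996 on the log2(CPM + 0.5) scale among 11069 genes with a mean of at least 5 CPM. Those most like Ptch1 were Gpr27, Habp4, Steap3, Tceal1 and Smad4 (r of 0.992 to 0.998), and those most like Hand2 were Ece2, Apbb1, Zfp68, Bmp7 and Col11a1 (r of 0.99 to 0.994). All points come from the same 6 libraries in 2 fractions, so a gene that differs between the fractions in the same direction gives a high r.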

How the data were processed

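RNA depleted of ribosomal RNA was sequenced from GFP-sorted cells, per the labels' protocols. The authors deposited raw counts for 26586 genes. Tools and a build listed in the submitters' processing notes are STAR 2.5.3a, bcl2fastq 2.20.0.422, StringTie 1.3.3, featureCounts 1.5.3 (Subread), mm10 and edgeR 3.22.5, with annotation and strand setting not given in the sources used here. Another deposited table holds the authors' own test of 15469 genes as log2 fold change, log2 CPM, F (a score) and p-values with FDR, on the same counts. For these genes the authors' deposited table gives FDR values of 0.000549 for Ihh, 0.00660 for Ptch1 and 0.104 for Hand2.

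The fit used edgeR 4.0.16 (R 4.3.3) with filterByExpr, TMM factors (0.895 to 1.08), a robust quasi-likelihood F test of Axin2+ over Axin2-, and Benjamini-Hochberg adjustment over 16896 genes at 0.05. Each SE is the size of the log2 fold change divided by the square root of F. DESeq2 1.42.0 was an alternative, and scaling, filters, dispersion, ribosomal RNA genes (14.75 to 23.81 percent of counts), the mouse as a block and each library left out were others. Ratios within a library were compared with exact permutation tests. Each SD is over 3 libraries, and without molecular identifiers a read need not be an independent molecule. Same-numbered libraries come from the same mouse per the labels. Their deviations from the fraction means correlated at 0.31, 0.03 and -0.11 for mice 1, 2 and 3, against at most 0.31 between mice. All libraries of a fraction differed by more than sampling noise (lowest chi-square per degree of freedom 61.2).

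Lengths, coordinates and overlaps come from GENCODE M21 (GRCm38, the assembly that mm10 names), whose gene models may differ from those counted. Promoters come from the RefSeq table of GRCm38.p6. The genes described, the lists and the tests were chosen with earlier results of these data known. The text names all 9 genes, up to 4 genes with the smallest p of each list (or 2 by level where none passed), and for Ihh, Ptch1 and Hand2 the 5 genes of most similar level. Further list genes were named after their values were seen. Of 124 list entries 120 matched by symbol, 3 by an older symbol and 1 (Mosmo) not at all. A gene of the reception and target lists is not reported here and is not counted in them. Markers of endothelium and mesothelium are given as counts, with Wt1 named, and those of macrophages as counts and summed levels.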

Additional observations from a re-analysis of the deposited data

How the results depend on the processing

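Of 144 log2 fold changes of the 9 genes in 16 other settings none reversed, and 140 kept their side of the threshold. Leaving out each library in turn gave log2 fold changes of -2.20 to -1.05 for Hhip, -1.97 to -1.36 for Gli1, -2.13 to -1.52 for Gli2, -1.45 to -1.01 for Nr2f2 and -1.78 to -0.80 for Hand2, and 4 to 6 of the 9 genes were called lower. With DESeq2 Hand2 passed (log2 fold change -1.15). With the mouse as a block (replicate block) the number of the 9 genes called stayed at 5 lower and 1 higher, while macrophage genes that rose numbered 4, endothelial genes that rose 3 and endothelial genes that fell 1; Hhat did not pass. For Ihh over Ptch1 pairing by mouse leaves the mean difference at 7.16 by arithmetic, so that value is no check. The exact sign-flip p was 0.25, the smallest that 3 mice allow.

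Leaving out each library in turn gave 1 to 3 lower genes of the ligand and release list, 1 to 4 of the reception list, 6 to 9 of the intracellular list and 1 to 4 of the Hand2 and Nr2f2 list. The list upstream of Ihh had 0 to 1 lower and 1 to 2 higher genes, the endothelial list 0 to 1 lower and 2 to 5 higher, and the macrophage list 0 to 8 higher, with 0 without the Axin2- labelled library of mouse 1. Over all genes 1491 to 2304 were higher and 1053 to 1911 lower, fewest without the Axin2+ labelled library of mouse 2 (1491 and 1053); without the Axin2- labelled libraries of mice 1 and 3 these were 1272 and 1308 lower. With library size alone 1 reception gene was lower and 1 intracellular gene higher. With upper quartile factors and with DESeq2 1 gene upstream of Ihh was lower, and 1 endothelial gene was lower with DESeq2 and with at least 1 CPM in 3 libraries. With no filter on low counts 5 macrophage genes were higher. The core alone was in 5 promoters, the full motif in 0. The cause of these differences was not tested. The 71 other values of the stromal ratios and of Ihh over Ptch1 moved by less than 1 SD. Those with the mouse as a block could not move, since pairing leaves a mean difference unchanged. The SD was wide: the stromal ratio of Hhip, with a difference of 0.07, ran from -0.78 to 1.20 when a library was left out, and that of Ptch1 from 0.32 to 1.22. With 3 libraries a fraction the exact tests cannot go below 0.1.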
